A study of Rattus norvegicus with 10 samples.

Results

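The highest-scoring sites of 2 maps of N6-methyladenosine (m6A) in rat cardiomyocytes were examined: the peaks that scored 3100 or more, where most listed scores are one and the same value. They were chosen by that score alone, and 1165 of the 133979 peaks met it. Of these, 517 lay in the list of hypertrophic cells, which held 65539 peaks (0.789%), and 648 in the list of quiescent cells, which held 68440 (0.947%). They are called top-score peaks here.

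All cells were primary cardiomyocytes isolated from rats of 1 to 3 days of age and kept in M199 medium. Hypertrophic cells received 2% bovine serum and quiescent cells, which the list names call normal, received none. RNA bound by an antibody against m6A was sequenced (m6A immunoprecipitation, IP), with 2 libraries per condition, and each list was called against IP with normal IgG, which carries no m6A specificity and was made from hypertrophic cells only, again with 2 libraries. Each condition has 1 list, and whether it pools both libraries is not given in its labels, so no value here has a replicate spread. The remaining 4 of the 10 libraries were input RNA and are not used here. The labels name no genetic change in any group. The markers of cardiomyocytes could not be checked, since peaks carry positions and no gene names.

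m6A is a methyl mark that a nuclear complex built around METTL3 and METTL14 places on adenosines of messenger and other RNA, that FTO and ALKBH5 can remove, and that YTH-domain proteins recognise. It is found most often near stop codons and in long internal exons, and it affects splicing, translation and decay of the marked RNA. In heart muscle cells METTL3 and m6A have been linked to hypertrophic growth, the increase in cell size that serum or pressure load can trigger. A peak in this assay depends on how much of the RNA is present as well as on how much of it is methylated, and these cannot be told apart in the lists.

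Scores were listed from 50 up. In MACS 1.4, the peak caller named for these lists, a score is 10 times minus the log10 of a p-value. Most of the scores chosen were 1 repeated value. Exactly 3100 was listed for 462 hypertrophic and 603 quiescent peaks. The other 55 hypertrophic peaks held 54 distinct scores above 3100 and the other 45 quiescent peaks held 45. Few peaks lay just below: 29 hypertrophic and 50 quiescent peaks scored from 3000 up to 3100. The highest listed score, 3233.06 in the hypertrophic list, equals 10 times minus the log10 of the smallest positive number that double-precision arithmetic holds (3233.06). The highest quiescent score was 3225.28. What the repeated 3100 stands for is not stated. Scores above 3100 are therefore not read as stronger peaks than those at exactly 3100.

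**Figure D1:**
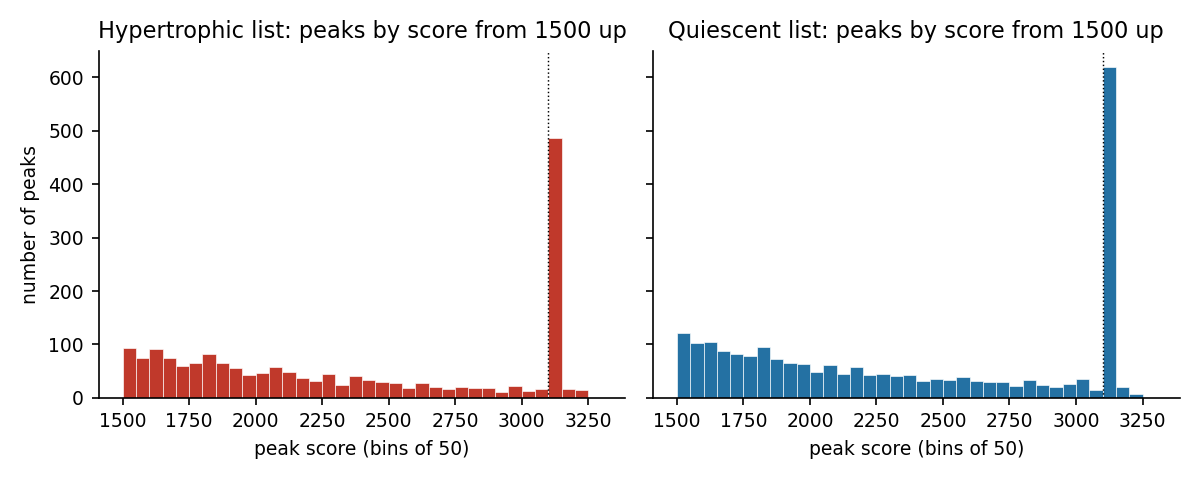
Number of peaks (vertical axis) per bin of 50 score units (horizontal axis) from 1500 up, with the hypertrophic list on the left and the quiescent list on the right; the dotted line marks 3100. The tallest bar of each list is the bin that starts at 3100, which includes the 462 hypertrophic and 603 quiescent peaks listed at exactly 3100.

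On either side of the repeated value the scores were close together. The lowest hypertrophic score above the repeated value was 3100.05, at chr12:13507714-13508289, a peak of 576 bp with a summit height of 66. The highest hypertrophic score below 3100 was 3099.07, at chr6:10430109-10430809, 701 bp wide with a height of 81. In the quiescent list the corresponding pair was 3101.85 at chr14:49104882-49105512 (631 bp, height 72) and 3096.43 at chr1:137170613-137171745 (1133 bp, height 91). Summit height is the deposited pileup value at the highest base of a peak, a whole number with no scaling stated. All positions are in rat build rn4, counted from 1.

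Peaks listed above 3100 had lower median heights than those at exactly 3100, with overlapping intervals. In the hypertrophic list the median height was 94 above 3100 (order-statistic 95% interval 82 to 109, 55 peaks) and 107 at exactly 3100 (104 to 112, 462 peaks). In the quiescent list it was 79 (76 to 97, 45 peaks) against 93 (88 to 96, 603 peaks). A partner is the overlapping peak of the other list that shares the most bases, so a site can hold a further peak that is taller or scores higher. Over all hypertrophic members with a partner it scored 3100 or more for 79.4%, against 1.45% of all overlapping hypertrophic peaks, and over quiescent members for 63.0%, against 1.11%. The overlapping quiescent peak also scored 3100 or more for 84.2% of the hypertrophic peaks at exactly 3100 but for 36.4% of those above it. For quiescent peaks the shares were 65.0% and 35.6%. A score above 3100 thus went with a partner at the threshold less often than the repeated 3100 did in these lists.

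The score rule used the same IP against IgG contrast that gave widths and heights, so both are described without a test. The median width was 1011 bp in the hypertrophic list (quartiles 776 and 1472 bp). It was 1068.5 bp in the quiescent list (quartiles 801 and 1624 bp). The medians of all other peaks were 338 and 339 bp. Peaks scoring from 2500 up to 3100 came close, at 960.5 bp (230 hypertrophic peaks) and 938 bp (339 quiescent peaks). Wider than 2000 bp were 65 hypertrophic top-score peaks (12.6%, against 1.07% of all hypertrophic peaks) and 103 quiescent ones (15.9%, against 1.07%). Of peaks scoring from 2500 up to 3100, 12.6% (hypertrophic) and 11.5% (quiescent) were that wide. Top-score peaks made up 2.22% of the bases covered by hypertrophic peaks and 2.87% of those covered by quiescent peaks.

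The narrowest hypertrophic member lay at chr14:61950210-61950598 (389 bp, height 139) and the narrowest quiescent one at chr4:182022330-182022754 (425 bp, height 65). A peak near chr14:16802004-16802441 was among the 3 narrowest in both lists, with 438 bp and a height of 118 in the hypertrophic list and 426 bp and a height of 117 in the quiescent list. At the other end, chr18:26783675-26790829 spanned 7155 bp in the hypertrophic and 7179 bp in the quiescent list, with heights of 147 and 145 and summits 1 bp apart. A site at chr1:195314040-195321100 spanned 7061 and 7220 bp with heights of 136 and 128. Its hypertrophic summit lay 3435 bp from the nearest quiescent summit of any peak. Its quiescent summit lay 3888 bp from the nearest hypertrophic summit, so the 2 summits of this pair were at least that far apart. Near-equal borders thus did not always mean the same highest base.

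The widest quiescent member was an extreme case. The quiescent peak chrX:81828821-81856390 was 27570 bp wide, scored 3100 and had a height of 66. Its hypertrophic partner had almost the same borders, 27589 bp from 81828797 to 81856385, and a taller summit of 82, yet scored 486.53. The widest hypertrophic member, chr15:40331725-40344583 (12859 bp, height 136), had no quiescent partner at all.

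Summits of top-score peaks were tall, but the tallest summits of the lists mostly scored lower. The median height was 106 in the hypertrophic list (quartiles 81 and 130) and 92 in the quiescent list (quartiles 70 and 117), against 18 and 15 for all other peaks. Peaks scoring from 2500 up to 3100 again stood close below, with medians of 90 and 80. Heights of 150 or more, near the highest listed value of 164, were reached by 49 hypertrophic members (9.48%, against 1.10% of all peaks) and 44 quiescent members (6.79%, against 0.910%). Yet these were only 6.81% of the 720 hypertrophic and 7.06% of the 623 quiescent peaks of that height. The peaks of that height outside the group had median scores of 332 (hypertrophic) and 348 (quiescent). In all, 3230 hypertrophic peaks that scored under 3100 were taller than the median hypertrophic member, and 3936 quiescent peaks were taller than the median quiescent member.

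**Figure D2:**
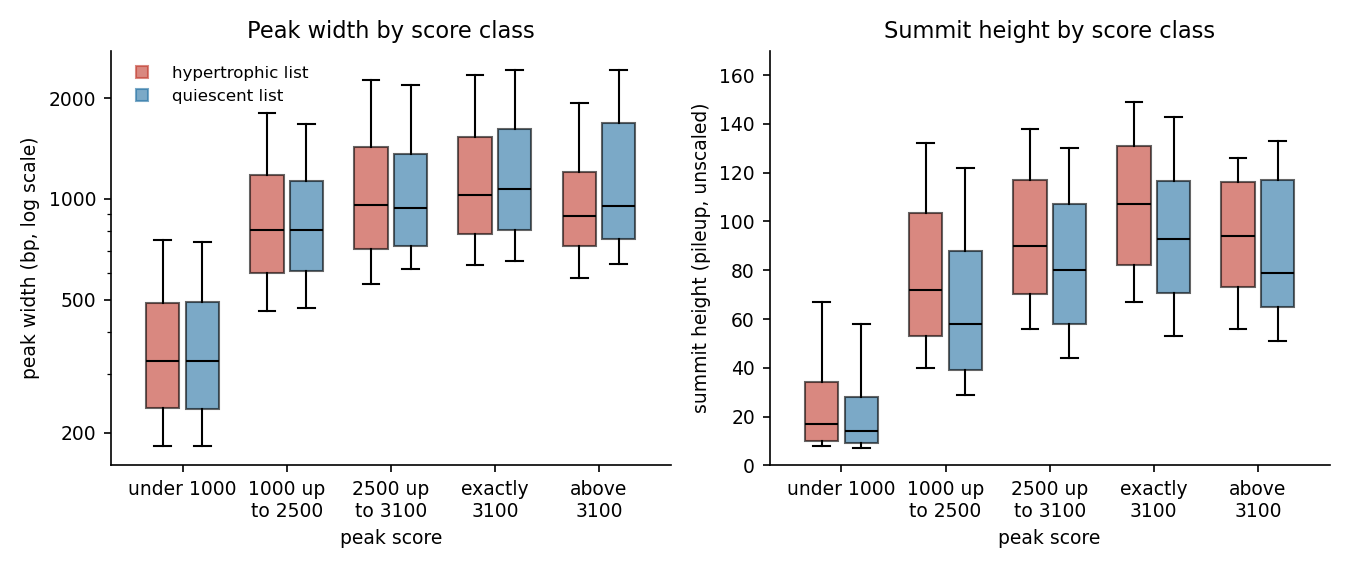
Peak width in bp on a log axis (left) and summit height as deposited (right) by score class, hypertrophic list in red and quiescent list in blue; boxes show the quartiles and median, whiskers the 10th and 90th percentiles of peaks in 1 list. Median heights are lower above 3100 than at exactly 3100, with heights of 94 against 107 in the hypertrophic list and 79 against 93 in the quiescent list.

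Low summits could also reach the threshold, mostly in the quiescent list. A height under 50 was found for 10 hypertrophic members (1.93%, against 81.1% of all peaks) and for 51 quiescent members (7.87%, against 84.2%). Peaks scoring from 2500 up to 3100 differed between the lists in the same direction, with 5.65% (hypertrophic) and 15.6% (quiescent) under 50. The difference between lists is thus not particular to top-score peaks. The lowest member was a quiescent peak at chr6:2877339-2882752, 5414 bp wide, with a height of 19. It overlapped 6 separate hypertrophic peaks. The next, chr2:25369047-25372217, had a height of 20 over 3171 bp and overlapped 5 hypertrophic peaks. The lowest hypertrophic member was chr8:21677873-21681403 (3531 bp, height 37). Its neighbour chr8:21673471-21675923 (2453 bp) and chr1:15112160-15112987 (828 bp) followed with a height of 39 each. At exactly 3100, Spearman's rho of width and height was -0.02 over 462 hypertrophic and -0.03 over 603 quiescent peaks. Over the 65022 hypertrophic and 67792 quiescent peaks below 3100, score and height had a rho of 0.64 in both lists. Peaks of 1 list share their libraries and these values are descriptions across peaks.

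At 7 hypertrophic members (1.35%, against 0.116% of all peaks) and 6 quiescent ones (0.926%, against 0.118%) the height was exactly 164. The same 3 sites led both lists when ties were broken by width: chr2:219969822-219975504 (5683 bp in the hypertrophic list, 5695 bp in the quiescent list), its neighbour chr2:219976538-219981815 (5278 and 5379 bp) and chr5:166548586-166550538 (1953 and 2037 bp). All 3 stood at 164 in both lists.

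Nearly all top-score peaks shared at least 1 bp with some peak of the other condition. They were 515 of 517 hypertrophic members (99.6%, Wilson 95% interval 98.6 to 99.9%), against 74.2% of all hypertrophic peaks, and 648 of 648 quiescent members, against 71.0%. Peaks scoring from 2500 up to 3100 did so about as often, in 230 of 230 hypertrophic and 338 of 339 quiescent cases (99.7%). The overlap is thus not particular to top-score peaks. The lists share their IgG control and are not independent. The 2 members without a partner were the wide peak on chromosome 15 named above and chr10:110712852-110714019 (1168 bp, score 3187.54, height 53), whose nearest quiescent summit lay 35819 bp away.

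When overlapping peaks were joined, the 1165 members fell on 756 sites. At 409 sites (54.1%) both lists scored 3100 or more, at 108 (14.3%) only the hypertrophic list did, and at 239 (31.6%) only the quiescent list did. No site held more than 1 member of a list. The sites at the threshold in both lists took in 79.1% of the hypertrophic and 63.1% of the quiescent members. Most sites were simple, with 684 holding exactly 1 peak of each list. The excess of quiescent-only over hypertrophic-only sites, 2.21-fold, rests on using the same score in both lists: with the 1000 highest scores of each list, 704 sites were in both, 294 in the hypertrophic list only and 295 in the quiescent list only. Lists of equal size leave nearly equal remainders by construction, so the 2.21-fold excess follows the larger number of quiescent members.

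Where only 1 list reached the threshold, the partner in the other list usually still scored far above the median partner of all overlapping peaks. That median was 178 for quiescent partners of all overlapping hypertrophic peaks and 163 for hypertrophic partners of all overlapping quiescent peaks. At hypertrophic-only sites the quiescent partner had a median score of 2582 (order-statistic 95% interval 2455 to 2702, 106 sites with a partner), and 61 of the 108 sites (56.5%) had a partner of at least 2500. At quiescent-only sites the hypertrophic partner had a median of 2038 (1867 to 2225, 239 sites), and 73 (30.5%) had one of at least 2500. Partners under 1000 numbered 6 at hypertrophic-only and 41 (17.2%) at quiescent-only sites. The hypertrophic list also held fewer peaks scoring from 2500 up to 3100, 230 against 339 in the quiescent list. The part of this difference in the lower partner scores at quiescent-only sites was not tested. Among overlapping peaks scoring 2500 up to 3100, 31.7% of hypertrophic and 18.3% of quiescent ones had a partner at 3100 or more. These shares count much the same overlaps from the other side and are no separate comparison.

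**Figure D3:**
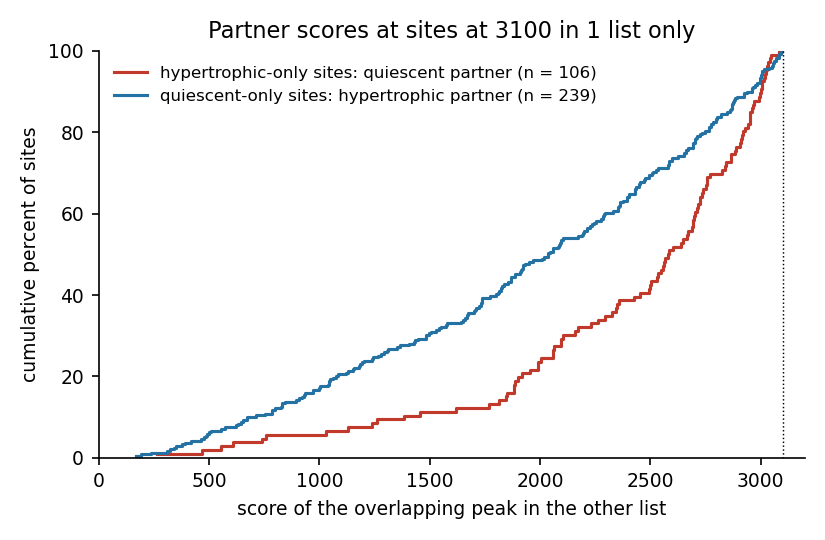
Cumulative percent of sites (vertical axis) by the score of the overlapping peak in the other list (horizontal axis) for the 106 hypertrophic-only sites with a partner (red) and the 239 quiescent-only sites (blue); the dotted line marks 3100. The blue line rises earlier: the median partner scored 2038 at quiescent-only and 2582 at hypertrophic-only sites.

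The members with the lowest partner scores were looked at singly. In the hypertrophic list, chr4:121600932-121601637 scored 3100 with a height of 87. Its quiescent partner scored 263.78 with a height of 14, so the hypertrophic summit was 6.21 times as tall. At chr6:10643253-10644525 the heights were 98 and 34 and the partner scored 554.35, while the tallest of the 2 quiescent peaks there reached 55 and the higher score was 1470.45. At chr1:185323551-185324144 they were 116 and 45 with a quiescent score of 741.18. The hypertrophic summit was the taller one at each of these 3 sites.

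Other low-scoring partners were the taller peak. The hypertrophic peak chr16:73555204-73557542 scored 3100 with a height of 106. Its quiescent partner was wider (4002 bp), had a height of 155 and scored 466.35. The joined site held a second hypertrophic peak, and the tallest hypertrophic summit there was also 155. At chr14:79708985-79709992 the hypertrophic peak scored 3195.69 with a height of 50, against a quiescent score of 606.74 with a height of 53. At this chromosome 14 site and at the 27570 bp peak on the X chromosome, each with 1 peak per list, the list with the shorter summit held the higher score.

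Among quiescent-only sites the 5 lowest partner scores all belonged to sites with a taller quiescent summit, each overlapping more than 1 hypertrophic peak. At chr20:50075060-50076471 the heights were 45 in the quiescent and 12 in the hypertrophic list, with a hypertrophic score of 169.52. At chr12:16486332-16488980 they were 98 and 58, with a partner score of 191.82, but the other hypertrophic peak of the site had a height of 78 and a score of 2112.82. At chr3:153238643-153240949 they were 33 and 10, with a score of 236.22, and at chr8:83190125-83191580 they were 33 and 11, with a score of 309.16. The fifth was the low peak on chromosome 2 named above, with heights of 20 and 9 and a hypertrophic score of 322.6. At all 5 sites every overlapping hypertrophic peak was shorter than the quiescent one.

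Overlap with several peaks made up a larger share at sites that reached the threshold in only 1 list. Over 1 peak of the other list was overlapped by 23 of 515 hypertrophic members (4.47%, against 1.84% of all overlapping peaks) and 41 of 648 quiescent members (6.33%, against 1.85%). Overlapping peaks scoring from 2500 up to 3100 had similar shares, 5.22% (hypertrophic) and 6.51% (quiescent). Of the quiescent members, 34 of the 239 at quiescent-only sites (14.2%, Wilson 95% interval 10.4 to 19.2%) and 7 of the 409 at sites in both lists (1.71%, interval 0.831 to 3.49%) did so. Of the hypertrophic members the counts were 12 of 106 (11.3%, interval 6.60 to 18.8%) and 11 of 409 (2.69%, interval 1.51 to 4.75%). The partner's score sets the class, and the part of splitting in that score was not tested. Quiescent-only members had a median width of 1134 bp, against 1028 bp for quiescent members at sites in both lists. In the hypertrophic list the order was the other way, with 973.5 bp at hypertrophic-only sites against 1019 bp.

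Summit heights of the 2 lists were close at sites that reached the threshold in both. The median log2 ratio of quiescent to hypertrophic height was -0.09 (order-statistic 95% interval -0.10 to -0.06, quartiles -0.20 and 0.02, 409 sites), against -0.15 over all 48600 overlapping hypertrophic peaks (quartiles -0.46 and 0.15). The hypertrophic summit was the taller one at 282 of these 409 sites (68.9%, against 61.8% of all overlapping peaks), the quiescent one at 109 (26.7%, against 32.6%), and 18 were equal (4.40%, against 5.61%). A difference of at least 1.5-fold was rare: 4 sites had a quiescent summit that much taller (0.978%, against 10.9%), and 6 had a hypertrophic one (1.47%, against 18.8%). These partners were taken from the hypertrophic side. From the quiescent side 5 sites passed 1.5-fold upward, among them chr1:61143073-61145366 (height 99), which overlapped 2 hypertrophic peaks and shared most bases with one of height 13 and score 280.63, while the tallest hypertrophic summit there was 103. Of overlapping hypertrophic peaks scoring from 2500 up to 3100, 2.17% had a quiescent summit at least 1.5 times as tall. The hypertrophic summit was that much taller for 9.13% of them. The class of 409 sites was set by a high score in both lists, so its small differences are no finding. Members are taller than most peaks, and the part of height in the smaller spread was not tested.

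Sites that reached the threshold in both lists could still differ in height. At chr9:59703537-59704794 the hypertrophic peak scored 3215.9 with a height of 48, and the quiescent partner scored 3100 with a height of 100, a ratio of 2.08. At chr18:58999938-59001081 the heights were 50 and 102, at chr11:83271946-83272525 they were 56 and 109, at chr2:31774333-31775386 they were 71 and 115, and at chr3:148503863-148506207 they were 57 and 84, in the same order. The quiescent summit was the taller one at all 5.

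In the other direction, chr10:98629035-98630919 had a hypertrophic height of 95 and a quiescent one of 46, a ratio of 0.484. It overlapped 2 quiescent peaks. At chr4:155368009-155368794 the heights were 133 and 75, at chr8:21673471-21675923 they were 39 and 23, at chr17:80086466-80088269 they were 50 and 30, and at chr9:62234921-62235884 they were 114 and 69. Both lists scored at least 3100 at all 10 of these sites.

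**Figure D4:**
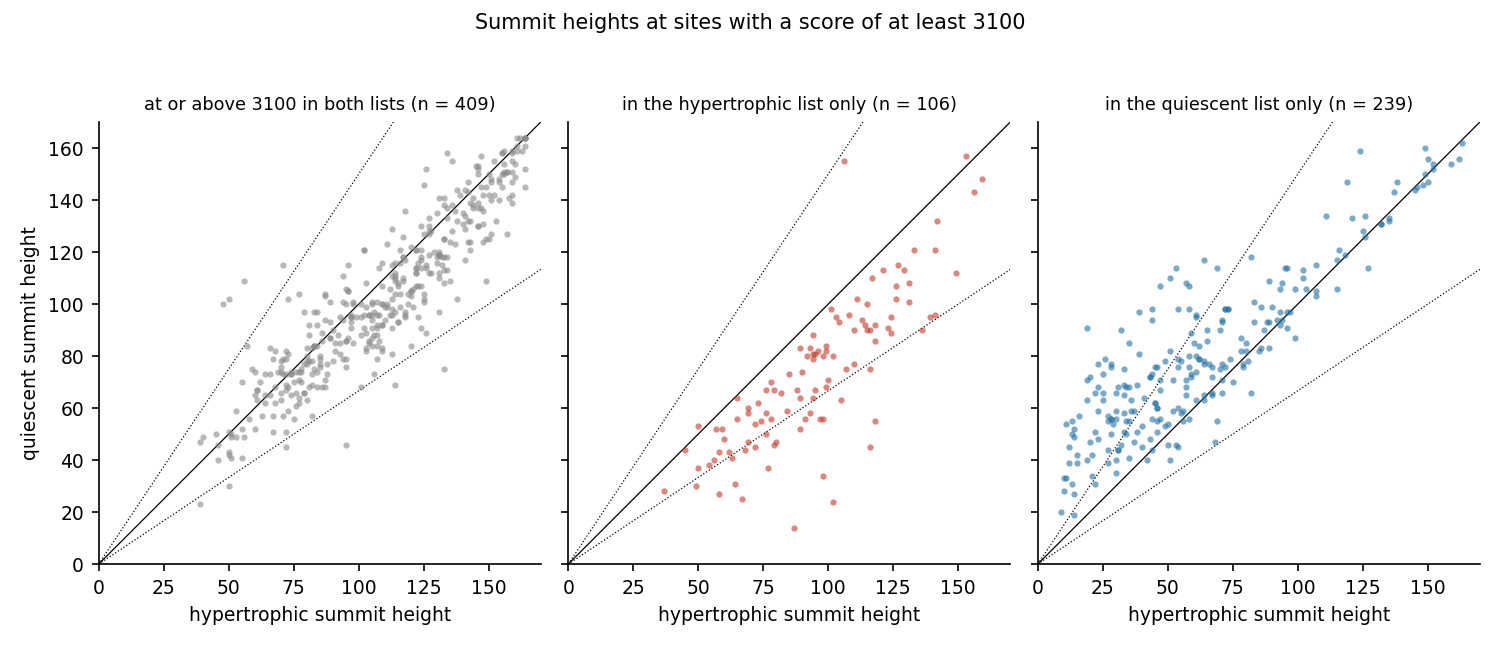
Summit height in the quiescent list (vertical axis) against that in the hypertrophic list (horizontal axis), both as deposited, for sites at 3100 or more in both lists (grey, 409), in the hypertrophic list only (red, 106 with a partner) and in the quiescent list only (blue, 239). The solid line marks equal heights and the dotted lines a 1.5-fold difference; 68.9% of the grey points lie below the solid line, 97.2% of the red ones do, and 81.2% of the blue ones lie above it.

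At sites in 1 list only, the taller summit was usually that of the list with the top score. It was the hypertrophic summit at 103 of 106 hypertrophic-only sites (97.2%, against 61.8% of all overlapping hypertrophic peaks) and the quiescent one at 194 of 239 quiescent-only sites (81.2%, against 31.5% of all overlapping quiescent peaks). The median log2 ratio of quiescent to hypertrophic height was -0.36 (interval -0.43 to -0.28) and 0.38 (interval 0.27 to 0.45) respectively. At 24 hypertrophic-only sites (22.6%, against 18.8% of all overlapping hypertrophic peaks) the hypertrophic summit was at least 1.5 times as tall, and at 87 quiescent-only sites (36.4%, against 9.91% of all overlapping quiescent peaks) the quiescent one was. The reverse 1.5-fold difference was found at 0 of 106 sites, which allows a share of up to 2.83% by counting error (10.9% of all overlapping hypertrophic peaks), and at 0 of 239, which allows up to 1.26% (19.7% of all overlapping quiescent peaks). The classes were set by the score, so their direction is no finding.

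Exceptions were found on both sides. At 39 of the 239 quiescent-only sites (16.3%, against 62.9%) the hypertrophic summit was the taller one although the quiescent list had the top score, and at 6 the heights were equal (2.51%, against 5.60%). At 3 hypertrophic-only sites (2.83%, against 32.6%) the quiescent summit was taller. Quiescent-only members were also shorter than the rest, with a median height of 76 against 100 for quiescent members at sites in both lists, and 36 of the 51 quiescent members with a height under 50 were among them. In hypertrophic-only members the median was 95, against 109 at sites in both lists. The IgG control for both lists came from hypertrophic cells; its part in these differences was not tested.

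Summits of members lay close to those of the other list in most cases, in a smaller share than for all overlapping peaks. The nearest quiescent summit was a median of 16 bp from a hypertrophic member's summit (quartiles 4 and 65 bp), and the nearest hypertrophic summit was 16 bp from a quiescent member's (quartiles 3 and 63 bp). Within 100 bp were 405 of 515 hypertrophic members with a partner (78.6%, Wilson 95% interval 74.9 to 82.0%, against 87.9% of all overlapping peaks) and 506 of 648 quiescent ones (78.1%, interval 74.7 to 81.1%, against 88.0%). For overlapping peaks scoring from 2500 up to 3100 it was 83.0% (hypertrophic, interval 77.7 to 87.3%) and 79.9% (quiescent, 75.3 to 83.8%). These intervals overlap those of members, so the lower agreement is not particular to top-score peaks. With peaks that had no partner counted too, the shares were 78.3% against 65.2% of all hypertrophic peaks and 78.1% against 62.4% of all quiescent peaks. The very same base was the summit for 30 hypertrophic members (5.83%, against 4.68%) and 35 quiescent members (5.40%, against 4.68%).

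The lower agreement went with width. Among members of at most 1000 bp, 220 of 255 hypertrophic (86.3%, interval 81.5 to 90.0%, against 88.7% of all such peaks) and 248 of 287 quiescent ones (86.4%, interval 82.0 to 89.9%, against 88.8%) had a summit of the other list within 100 bp. Among members wider than 2000 bp, the numbers were 39 of 64 (60.9%, interval 48.7 to 71.9%, against 77.7%) and 68 of 103 (66.0%, interval 56.4 to 74.4%, against 76.9%). Agreement in wide members was below that of wide peaks in general, and in narrow members it was near that of narrow peaks. Among wide peaks scoring from 2500 up to 3100 it was 79.3% (29 hypertrophic, interval 61.6 to 90.2%) and 74.4% (39 quiescent, 58.9 to 85.4%). These intervals overlap those of wide members, and widths above 2000 bp were not matched. Within a peak, the summit of a member lay a median of 36.1% (hypertrophic) and 35.1% (quiescent) of the width away from the nearer border, against 38.4% and 38.1% for all peaks.

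Most top-score peaks had no other top-score peak of their list nearby, but a larger share of them did than of all peaks. The gap from a member to the nearest other member of its list, border to border, had a median of 915 kb in the hypertrophic list (quartiles 277 and 2739 kb) and 666 kb in the quiescent list (quartiles 159 and 2158 kb). Another member lay within 10 kb for 25 hypertrophic members (4.84%, Wilson 95% interval 3.30 to 7.04%, against 1.35% of all hypertrophic peaks) and 42 quiescent members (6.48%, interval 4.83 to 8.65%, against 1.63%). With peaks of any score counted, 395 hypertrophic members (76.4%, against 65.4% of all peaks) and 472 quiescent ones (72.8%, against 63.5%) had a neighbour within 10 kb. The median neighbour was far below the threshold: the 861 hypertrophic neighbours under 3100 had a median score of 132 and a median height of 22, and the 1075 quiescent ones 156 and 19, against medians of 119 and 18, and of 125 and 15, for all peaks under 3100. Peaks scoring from 2500 up to 3100 came close to members in spacing. A member lay within 10 kb of 3.91% of the hypertrophic ones (interval 2.07 to 7.27%) and 3.83% of the quiescent ones (interval 2.25 to 6.45%). These intervals overlap those of members. For neighbours of any score within 10 kb, the shares of these peaks were 76.5% and 68.7%.

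Members within 10 kb of each other formed 12 hypertrophic and 19 quiescent clusters, and none had more than 3 members. One cluster of 3 was found in both lists. It lay on chromosome 1, with hypertrophic peaks at 94953194-94956883 (3690 bp, height 157), 94957459-94960112 (2654 bp, height 161) and 94960178-94961658 (1481 bp, height 131), of which the last 2 were 65 bp apart. The quiescent peaks had heights of 151, 161 and 119 in the same order, and all 6 peaks scored 3100. The hypertrophic summit was taller at 2 of the 3 pairs and equal at the third.

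The quiescent list had 3 further clusters of 3. On the X chromosome, the 27570 bp peak was flanked by chrX:81823383-81828670 (5288 bp, height 63) 150 bp before it and chrX:81862568-81866925 (4358 bp, height 51) after it. Both flanking peaks were at the threshold in the hypertrophic list too, with taller hypertrophic summits of 80 and 67. On chromosome 1, quiescent peaks at 60548319-60549167, 60556965-60559669 and 60561214-60562525 had heights of 104, 134 and 68, and their hypertrophic partners had 87, 111 and 57 with scores of 3100, 2997.21 and 1912.86. On chromosome 3, quiescent peaks at 154210144-154211243, 154215129-154215920 and 154216361-154217369 had heights of 46, 112 and 113, against 53, 127 and 134 for the hypertrophic partners. Within each of these 3 clusters the same list had the taller summit at all 3 peaks, the quiescent list on chromosome 1 and the hypertrophic list on chromosomes 3 and X.

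Every chromosome in the lists (1 to 20 and X) held top-score peaks. Their share among the peaks of a chromosome ran from 0.162% (3 of 1856) on X to 1.24% (24 of 1928) on chromosome 19 in the hypertrophic list. In the quiescent list it ran from 0.316% (6 of 1896) on X to 1.26% (33 of 2619) on chromosome 14. Chromosomes 7 and 10 were next lowest in both lists, at 0.490% and 0.499% in the hypertrophic and 0.600% and 0.667% in the quiescent list. Chromosome 1 held the most members, 69 and 96.

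Chromosome 19, singled out after its values were seen, went the other way from the rest. It held 24 sites, of which 14 were at the threshold in both lists, 10 in the hypertrophic list only and 0 in the quiescent list only. On each of the other 20 chromosomes there were more quiescent-only than hypertrophic-only sites, 239 against 98 in all. The excess was narrow on chromosomes 6 (8 against 7), 13 (7 against 6) and 18 (4 against 3). At all 10 of these chromosome 19 sites the hypertrophic summit was the taller one. Their hypertrophic heights ran from 64 over a median of 99.5 to 141, and their quiescent heights from 31 over a median of 67.5 to 110. The quiescent partners scored from 1622 to 3032.

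The 10 sites were spread over the chromosome, from 10.4 to 55.0 Mb, and not gathered at 1 locus. The first, chr19:10361694-10362673, had heights of 118 and 55 in the hypertrophic and quiescent lists, and chr19:20104826-20105986 had 64 and 31. Over the chromosome's 1477 overlapping hypertrophic peaks the median log2 ratio of quiescent to hypertrophic height was -0.15, the same as over all chromosomes. Over its 85 peaks scoring 1000 up to 3100 it was -0.20, as it was over its 24 hypertrophic members, and the other chromosomes ran from -0.26 on X to -0.13 on chromosome 18 in that score range. With the 1000 highest scores of each list the chromosome had 12 hypertrophic-only and 7 quiescent-only sites. Over all chromosomes that setting gave 294 and 295, so the lists had no quiescent excess there, and the other chromosomes were not counted singly. With a score of at least 3000, or of exactly 3100, chromosome 19 had 9 hypertrophic-only and 0 quiescent-only sites in both cases. With 1 list per condition the difference between chromosomes has no replicate check.

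**Figure D5:**
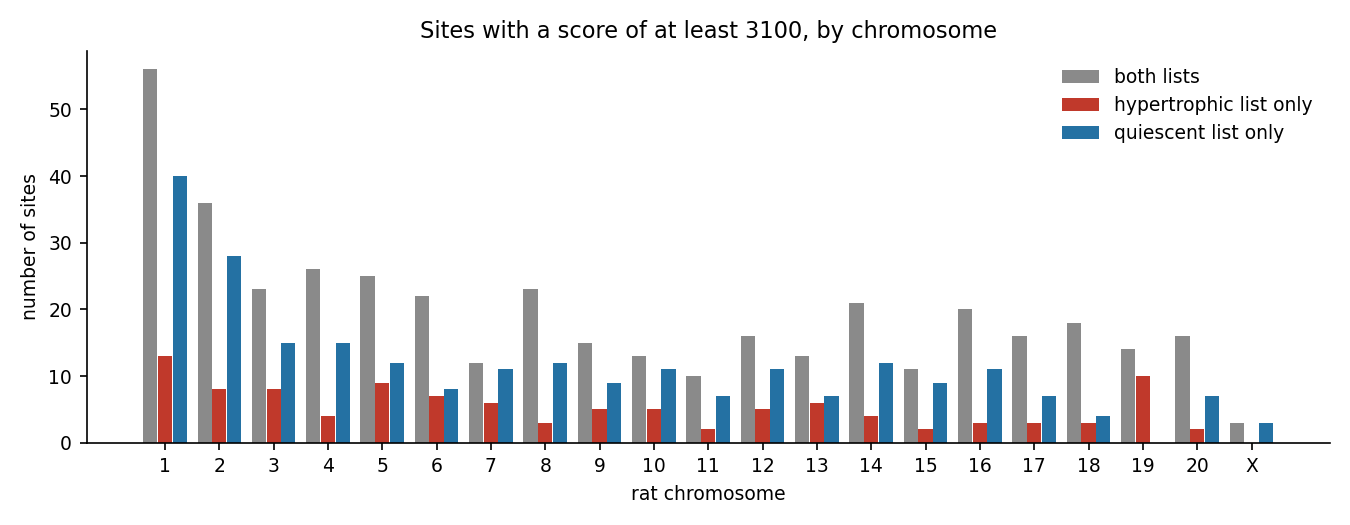
Number of sites (vertical axis) per rat chromosome (horizontal axis) at 3100 or more in both lists (grey), in the hypertrophic list only (red) and in the quiescent list only (blue). Blue bars exceed red ones on every chromosome but 19, which has 10 hypertrophic-only and 0 quiescent-only sites.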

How the data were processed

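m6A IP libraries of hypertrophic and quiescent cells were set against IgG IP by the authors, who deposited 1 peak list and 1 summit list per condition. Per the submitters' processing notes, CASAVA 1.8, TopHat, MACS 1.4 and build rn4 were used; parameters and any pooling of replicates are not stated there. The deposited score is a whole-peak value of the authors' caller, used to choose and describe peaks within a list. The deposited summit signal is a pileup height in whole numbers, with no scaling stated. Library depth is unknown.

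Peaks were matched across lists by an overlap of at least 1 bp; a partner is the overlapping peak with the most shared bases, and joined overlapping peaks make a site. Intervals (95%) are Wilson for shares and from binomial order statistics for medians; they cover counting error only. No test was run: each condition has 1 list and the score chose the members. Named peaks are the extremes of score, width, height, partner score, height ratio and cluster size (3 or 5 each), members without a partner, and the extreme chromosomes; the chromosome 19 peaks and chr1:61143073-61145366 were added after their values were seen. Members and comparisons were chosen with earlier results of these data known. Alternatives changed the score threshold, overlap, summit distance, partner score, height rule and gap. Matching code was tested on simulated lists. No sequence or gene is given, since rn4 sequence and annotation were not used here. All deposited value columns were used (0 left out). Python 3.11.15, numpy 2.4.6, pandas 2.3.3, scipy 1.17.1 and matplotlib 3.10.9 were used.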

Additional observations from a re-analysis of the deposited data

How the results depend on the processing

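Over 18 results, 54 alternative values were computed: 47 stayed within the main value's interval or within 1.5 times its count, and 7 moved. A reversal could be labelled only for the log2 ratio of heights, which stayed negative. For counts, shares and other medians no reversal was defined. With the 1000 highest scores of each list, sites in both lists numbered 704, hypertrophic-only sites 294 and quiescent-only sites on chromosome 19 numbered 7, as more peaks entered; that chromosome's alternatives were chosen after seeing the data. Quiescent-only sites numbered 295 at that setting, against 239 in the main one. That count stayed within the rule, although the quiescent excess was gone. With 50 bp in place of 100 bp for summits, the shares fell to 72.0% (hypertrophic) and 73.1% (quiescent). With gaps of up to 50 kb, 62 hypertrophic and 89 quiescent members had another member nearby. No paired analysis was possible because each condition has 1 list that carries no replicate number, and no replicate could be left out for the same reason. Equal scores do not rank peaks at 3100, and unknown depth limits every height comparison.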
